A study of Rattus norvegicus with 6 samples.

Results

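Genes that encode Rab proteins, SNAREs, synaptotagmins and their close partners were followed in RNA pulled down from GH4C1 cells, an established rat pituitary cell line of wild-type genotype. Members were taken by gene symbol. Symbols that began with Rab and a digit, Syt, Stx, Stxbp, Vamp, Sec22, Unc13, Exoc or Cadps were taken, together with the Snap and Cplx genes of this machinery. The choice gave 141 of the 32883 genes in the table. All cells had been treated with psoralen, which crosslinks paired nucleic acid strands, and the study sought the RNAs in direct contact with the long noncoding RNA Neat1. The libraries of both groups came from the same treated line and, by the labels, differ in the oligonucleotide pool used for retrieval, pool A or pool B, with 3 libraries each. The labels state neither the sequences in a pool nor whether either pool was a control. Input RNA was not analysed here, so each comparison is between the pools and does not measure binding by itself.

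Hormone-secreting pituitary cells keep their product in dense-core granules and release it when calcium rises. Rab proteins are small GTPases that mark each membrane and recruit motors and tethers. SNARE proteins on the vesicle and on the target membrane zip together to fuse them. Synaptotagmins sense the calcium, Munc18 proteins of the Stxbp family and the priming factors of the Unc13 and Cadps families prepare the SNAREs for fusion, complexins hold them ready, and the exocyst tethers vesicles to the plasma membrane.

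Total counts per library were between 1826390 and 3685899, and a count of 0 allows up to 3 counts, or between 0.814 and 1.64 CPM, which are counts scaled to the total of each library. Reads carried no stated molecular identifiers, so this limit covers counting error only. The labels do not say whether the libraries came from separate cultures, so p-values measure the spread between these libraries, which may be technical. The transcripts of the growth hormone and prolactin lineage were present: Gh1, Prl and Pou1f1 had at least 10 counts in every library, as did 6 of the 8 lineage and granule markers examined. Pcsk1 and Pcsk2, prohormone convertases, did not reach this level. Of 15 markers of other pituitary and connective cell types, 13 were rows of the table, and only Lhb and Sox2 among them had 10 counts in all 6 libraries, while Hbb, Tshb, Fshb and Col3a1 were at 0. The summed level of these other markers was 60.5 to 83.5 CPM with pool A and 71.6 to 88.2 CPM with pool B. Lhb had a log2 fold change of -1.68 and Sox2 of 1.13, both past the edgeR threshold, and the part of these markers in the results below was not tested. The summed level of the 8 lineage and granule markers was 7715 to 8639 CPM with pool A and 30510 to 37610 CPM with pool B, a gap carried by the granule protein gene Chgb, with 3411 to 4225 and 27490 to 34680 CPM. Prl, Chga and Scg2 went the other way, with log2 fold changes, pool A over pool B, of 0.83, 0.63 and 0.77 that passed the edgeR threshold, and Gh1 (0.18) and Pou1f1 (-0.23) did not pass.

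Of the 141 secretion genes, 110 had enough counts to be tested. Another 24 had some counts but too few, and 7 had none in any library. Genes without a count were Rab17, Rab32, Rab33a, Syt2, Syt8, Syt10 and Exoc1l. Cadps2, Cplx3, Cplx4, Rab3b and Unc13d were among those with too few counts. The genes that entered the test are thus those with measurable recovery in at least 1 pool, and counts below refer to them.

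The transcripts of this machinery were recovered unequally by the pools in both directions. In edgeR's quasi-likelihood test, with an adjusted p under 0.05 over all genes as the threshold, pool A was higher for 23 secretion genes and pool B for 16. That is 35.5% of the 110, against 40.6% of all 11582 genes tested, so the share called was near that of the whole table. By direction, pool A was higher for 20.9% and pool B for 14.5%, against 18.6% and 22% of all genes. The median log2 fold change, pool A over pool B, was 0.01 over the 110 genes and 0.02 over all genes. The balance of directions depended on scaling, since 59.0% of the called secretion genes were higher with pool A under TMM factors and 48.6% with total counts alone. Total counts alone moved the median over all genes by -0.14. Past 2-fold lay 12 of the called genes in favour of pool A (11.1% of all tested genes met this) and 8 in favour of pool B (14.2%). Past 4-fold lay 9 genes (7.82% of all tested genes). For 51 of the 110 the pools had separate CPM ranges, which is 46.4% against 49.1% of all genes. In bulk libraries without input, the amount of an RNA in the cells and its retrieval by a pool cannot be told apart in the level of a single pool. Of the 39 called genes, 29 kept the call whichever library was left out.

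**Figure D1:**
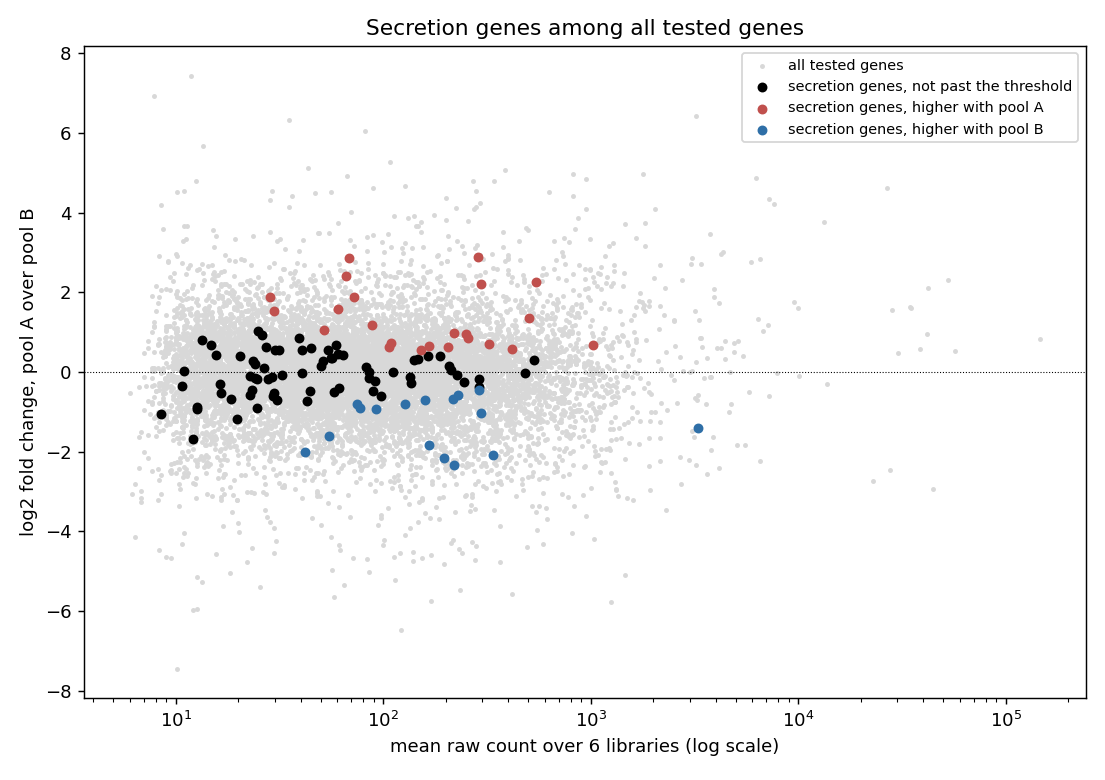
Each point is a gene, placed by its mean raw count over the 6 libraries (log scale) and its log2 fold change, pool A over pool B; grey points are all 11582 tested genes and large points the 110 secretion genes. The secretion genes lie between -2.34 and 2.88, inside the cloud of the other genes.

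Within each class, genes were called in both directions. Rab GTPases had 12 called genes of 42 (28.6%, against 40.6% of all genes), 5 in favour of pool A and 7 of pool B. SNAREs had 8 of 24 (33.3%), 6 and 2. The proteins that act on or through Rabs had 6 of 10 (60%), 3 and 3. Synaptotagmins had 4 of 11 (36.4%), 3 and 1, and exocyst genes 5 of 11 (45.5%), 4 and 1. The Stxbp proteins and the priming factors each had 2 of 6 (33.3%), 1 and 1. Of all tested genes, 18.6% favoured pool A and 22% pool B. Class medians on the log2 scale were -0.17 for Rab GTPases, -0.15 for Rab regulators and effectors, -0.02 for SNAREs, -0.04 for Stxbp proteins, 0.41 for synaptotagmins, 0.03 for priming factors and 0.63 for the exocyst. These are descriptions, and no test compared the classes. Except for synaptotagmins and the exocyst, each of these medians changed sign when some library was left out.

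**Figure D2:**
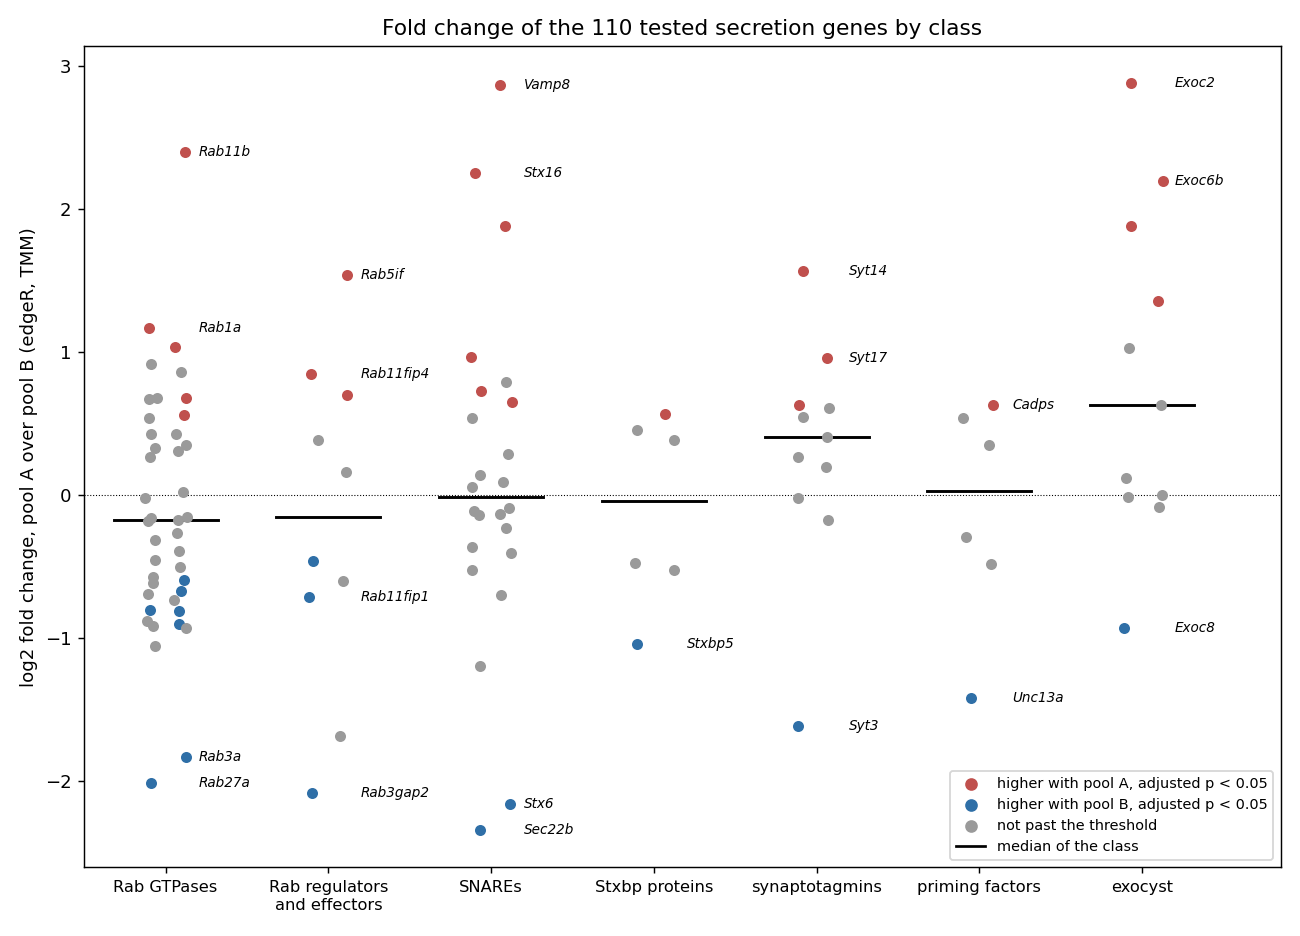
Log2 fold change, pool A over pool B, of the 110 tested secretion genes by class, with red for genes higher with pool A, blue for genes higher with pool B and grey for genes not past the threshold; black bars are class medians. Every class holds genes called in each direction, and the exocyst has the highest median, 0.63.

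Among the Rab GTPases, Rab3a and Rab27a were recovered more with pool B, and Rab11b, Rab1a and Rab3d more with pool A. Rab3a (ENSRNOG00000019433) and Rab27a (ENSRNOG00000052499) sit on secretory vesicles and granules and help dock them at the plasma membrane. Rab3a had 32.6, 25.3 and 18.8 CPM in pool A replicates 1, 2 and 3, and 97.5, 104.0 and 104.0 CPM in pool B replicates 1, 2 and 3. Every pool B library was thus above every pool A library, with a log2 fold change of -1.83 ± 0.21 (SE, edgeR adjusted p 6.40e-08). Rab27a had 7.33, 4.75 and 5.33 CPM with pool A and 26.9, 23 and 28.8 CPM with pool B. Its ranges did not overlap either, and it showed the largest difference in favour of pool B among Rab GTPases, at -2.01 ± 0.37 (SE, edgeR adjusted p 6.55e-05).

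Of their tested paralogs, Rab3d was called in the opposite direction and Rab27b was not called, while Rab3b and Rab3c had too few counts to test. Rab3d, the Rab3 form best known from exocrine granules, had 31.7, 21.8 and 15.4 CPM with pool A and 13.6, 16.4 and 7.95 CPM with pool B. It was higher with pool A by 1.04 ± 0.36 (SE) on the log2 scale (edgeR adjusted p 0.0235), although pool A replicate 3 lay below pool B replicate 2. This call was lost when the fit lacked pool A replicate 1 (edgeR adjusted p 0.207) or pool B replicate 3 (0.119), and the alternatives ranged from 0.00593 to 0.207. Rab27b had 4.88, 6.33 and 6.90 CPM with pool A and 13.6, 13.7 and 10.2 CPM with pool B. Its ranges were separate in the same order as those of Rab27a, and its log2 fold change of -0.91 ± 0.46 (SE) did not pass (edgeR adjusted p 0.126). Within each library, Rab3d received 0.975, 0.859 and 0.817 counts per count of Rab3a with pool A, and 0.14, 0.158 and 0.0764 with pool B.

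Of the recycling Rabs, Rab11b was called and Rab11a was not. Rab11b (ENSRNOG00000007648), a GTPase of recycling endosomes, had 33.9, 34.4 and 40.5 CPM with pool A and 5.45, 12.1 and 6.05 CPM with pool B. All pool A libraries lay far above those of pool B, and the log2 fold change of 2.40 ± 0.33 (SE) came with adjusted p = 9.86e-07 in edgeR. Rab11a, its near relative, had 4.88, 3.96 and 5.96 CPM with pool A and 7.84, 10.95 and 7.95 CPM with pool B. These ranges were separate in the opposite order, but the counts were low, between 10 and 23 per library. Its log2 fold change of -0.69 ± 0.53 (SE) did not pass (edgeR adjusted p 0.329). Rab11b received 6.94, 8.70 and 6.79 counts per count of Rab11a with pool A and 0.696, 1.10 and 0.762 with pool B. Close paralogs can share reads, and how reads matching several genes were assigned is not given in the sources used here.

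Of the other Rab GTPases, Rab1a, which acts between the endoplasmic reticulum (ER) and the Golgi, was higher with pool A. It had 46.1, 37.6 and 35.5 CPM with pool A against 26.6, 14.8 and 16.7 CPM with pool B, for a log2 fold change of 1.17 ± 0.27 (SE, edgeR adjusted p 0.00103). The genes named next in this paragraph lie outside the naming rule and were chosen after their values were seen. Rab7a of late endosomes (log2 fold change 0.68 ± 0.14, SE) and Rab5b of early endosomes (0.56 ± 0.20) were also higher with pool A. Rab10 (-0.67 ± 0.17), Rab21 (-0.81 ± 0.21), Rab22a (-0.90 ± 0.29), Rab26 (-0.59 ± 0.17) and Rab40c (-0.80 ± 0.27) were higher with pool B. Of these, Rab10 acts in transport to the plasma membrane and Rab26 in the maturation of secretory granules. Rab5b lost its call without pool A replicate 1 or 2 or pool B replicate 2 or 3 (edgeR adjusted p 0.056, 0.111, 0.0515 and 0.099, within 0.00894 to 0.577 over the alternatives). For Rab22a the call was lost without pool A replicate 1 or 2 or pool B replicate 1 (0.0893, 0.0586 and 0.0633, within 0.00367 to 0.156). Rab40c lost it without pool A replicate 1 or 2 or pool B replicate 1 or 3 (0.121, 0.0583, 0.0671 and 0.052, within 0.00887 to 0.242). The number of Rab GTPases higher with pool A fell from 5 to 3 when the fit lacked pool A replicate 1 or pool B replicate 3. The 30 Rab GTPases that did not pass had log2 fold changes between -1.05 and 0.92.

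Genes for proteins that switch or read Rabs were divided as well. Rab3gap2 (ENSRNOG00000002353) is the non-catalytic subunit of the Rab3 GTPase-activating complex. It had 53.5, 49.0 and 33.9 CPM with pool A and 218.1, 197.1 and 225.1 CPM with pool B. The log2 fold change was -2.08 ± 0.18 (SE, edgeR adjusted p 2.81e-10), and the ranges of the pools did not overlap. Rab3gap1, the catalytic subunit of the same complex, had 73.7 ± 16.9 CPM in pool A (SD, n = 3) against 72.5 ± 16.5 CPM in pool B (SD, n = 3), for a log2 fold change of 0.16 ± 0.19 (SE, edgeR adjusted p 0.549). Rab3gap1 received 1.34, 1.19 and 2.70 counts per count of Rab3gap2 with pool A and 0.409, 0.364 and 0.25 with pool B, so the subunits of this complex were recovered in different proportions by each pool.

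Rab11 effectors, the Rab11fip genes, went both ways. Rab11fip4 had 113.1, 99.7 and 113.2 CPM with pool A and 73.6, 56.9 and 67.7 CPM with pool B. That put it higher with pool A by 0.85 ± 0.17 (SE) on the log2 scale (edgeR adjusted p 0.000175). Rab11fip1 had 38.8, 38.8 and 46.7 CPM with pool A and 87.9, 67.9 and 67.7 CPM with pool B, for a log2 fold change of -0.71 ± 0.20 (SE, edgeR adjusted p 0.00461). Rab11fip3, outside the naming rule, was higher with pool A by 0.70 ± 0.16 (SE). Rab5if, which encodes a Rab5-interacting factor, had 12.8, 16.2 and 16.0 CPM with pool A and 1.36, 10.95 and 5.68 CPM with pool B. Here the log2 fold change of 1.54 ± 0.52 (SE) came with adjusted p = 0.0186 in edgeR. The counts in pool B were 4, 20 and 15. Leaving out pool B replicate 2 gave 2.22, and the call was lost when pool A replicate 2 (edgeR adjusted p 0.0652) or pool B replicate 1 (0.0869) was missing, within 0.00271 to 0.0979 over the alternatives. Rab3ip, an exchange factor for Rab8 and also outside the rule, was higher with pool B by -0.46 ± 0.17 (SE), a call lost without pool A replicate 2 and pool B replicate 3 (edgeR adjusted p 0.231 and 0.166, within 0.0107 to 0.788). Without pool A replicate 3, the number of these genes higher with pool B was 5 in place of 3.

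SNAREs spanned the widest range of fold changes of any class here, from -2.34 to 2.87 on the log2 scale. Vamp8 (ENSRNOG00000012748), a vesicle SNARE of endosomes and of granule-to-granule fusion, had 44.2, 35.6 and 35.8 CPM with pool A and 5.11, 4.93 and 7.19 CPM with pool B. The lowest pool A library was well above the highest pool B library. The log2 fold change was 2.87 ± 0.32 (SE), or 7.33-fold (edgeR adjusted p 3.30e-08). Vamp2, the vesicle SNARE of regulated exocytosis, had 18.2, 9.89 and 15.4 CPM with pool A and 1.02, 8.21 and 4.54 CPM with pool B. Its ranges were separate by a small margin, and the log2 fold change of 1.88 ± 0.54 (SE) came with adjusted p = 0.00645 in edgeR. It was 2.52 with pool B replicate 2 left out, and with pool A replicate 1 left out it was 1.66 (edgeR adjusted p 0.0511), within 0.00102 to 0.0511 over the alternatives.

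The partners of Vamp2 in the exocytic SNARE complex did not pass the threshold. Stx1a, a syntaxin of the plasma membrane, had 76.8, 61.7 and 82.8 CPM with pool A and 71.9, 88.2 and 74.9 CPM with pool B. These ranges overlapped, and the log2 fold change of 0.06 ± 0.18 (SE) came with adjusted p = 0.816 in edgeR; its sign turned to -0.07 with total counts alone. Snap25 had 200.0, 191.0 and 200.8 CPM with pool A and 186.4, 186.7 and 164.2 CPM with pool B, for a log2 fold change of 0.29 ± 0.14 (SE, edgeR adjusted p 0.0993). It passed with upper-quartile factors (0.0234), and the alternatives ranged from 0.0234 to 1.

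SNAREs of the trans-Golgi network and of the early secretory pathway differed between partners of the same fusion step. Stx16 (ENSRNOG00000005281) and Stx6 (ENSRNOG00000003402) are syntaxins that join the same complex for transport from endosomes to the trans-Golgi network. Stx16 had 350.8, 259.8 and 254.1 CPM with pool A and 81.5, 66.8 and 53.0 CPM with pool B, for a log2 fold change of 2.25 ± 0.18 (SE, edgeR adjusted p 2.98e-11). Stx6 had 20.1, 26.9 and 30.4 CPM with pool A and 110.1, 125.9 and 143.4 CPM with pool B, for a log2 fold change of -2.16 ± 0.20 (SE, edgeR adjusted p 7.68e-10). Neither gene's ranges overlapped between the pools. Stx16 received 17.5, 9.66 and 8.35 counts per count of Stx6 with pool A and 0.74, 0.53 and 0.369 with pool B. The other SNAREs of that complex are Vti1a and Vamp4, which were named after their values were seen. Vti1a, and Gosr2 and Bet1 described next, are SNAREs that the name rule does not take and belong to the list of further pathway genes described last, so they are not among the 110. Vti1a was higher with pool B, with a log2 fold change of -0.90 ± 0.21 (SE, edgeR adjusted p 0.00112), and Vamp4 had 0.09 ± 0.48 (SE, edgeR adjusted p 0.901).

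Sec22b (ENSRNOG00000018673), the vesicle SNARE of transport between the ER and the Golgi, had 21.7, 25.7 and 32.3 CPM with pool A and 127.8, 188.9 and 130.9 CPM with pool B. The log2 fold change of -2.34 ± 0.20 (SE) came with adjusted p = 1.59e-10 in edgeR and was the largest in favour of pool B among the 110 genes. Gosr2, a Golgi SNARE of the same transport step, had 42.6, 34.8 and 29.2 CPM with pool A and 113.5, 103.5 and 128.6 CPM with pool B, so that its log2 fold change of -1.55 ± 0.20 (SE) lay on the same side (edgeR adjusted p 2.57e-07). Stx5, the Golgi syntaxin that pairs with them, lies outside the naming rule and was on the other side with 0.73 ± 0.25 (SE). Its ranges overlapped, with 30.85 to 55.21 CPM in pool A and 23.08 to 40.52 CPM in pool B. It lost its call without pool A replicate 1 or 3 or pool B replicate 1 or 3 (edgeR adjusted p 0.0919, 0.0858, 0.0691 and 0.125, within 0.00785 to 0.309 over the alternatives). Bet1, the remaining SNARE of that group, had 15, 12 and 24 counts with pool A and 7, 4 and 1 with pool B. Here the log2 fold change of 1.85 ± 0.74 (SE) came with adjusted p = 0.0488 in edgeR, and 12 of 14 alternatives did not pass. Over all 14 alternatives, the adjusted p of the test used lay between 0.0372 and 0.223. Each of the 6 fits that left out a library was among the 12 that did not pass.

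Among the other plasma membrane syntaxins, chosen after their values were seen, Stx4 was higher with pool A, at 97.6 ± 6.0 CPM (SD, n = 3) against 55.2 ± 8.3 CPM (SD, n = 3), a log2 fold change of 0.97 ± 0.18 (SE, edgeR adjusted p 7.29e-05). Stx2 was higher with pool A by 0.65 ± 0.20 (SE), a call lost without pool B replicate 2 or 3 (edgeR adjusted p 0.0584 and 0.079, within 0.00276 to 0.399). Its ranges overlapped, with 60.11 CPM in pool A replicate 2 and 60.67 CPM in pool B replicate 1. Stx3 had -0.23 ± 0.27 (SE, edgeR adjusted p 0.533). The 16 SNAREs that did not pass had log2 fold changes between -1.19 and 0.79.

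**Figure D3:**
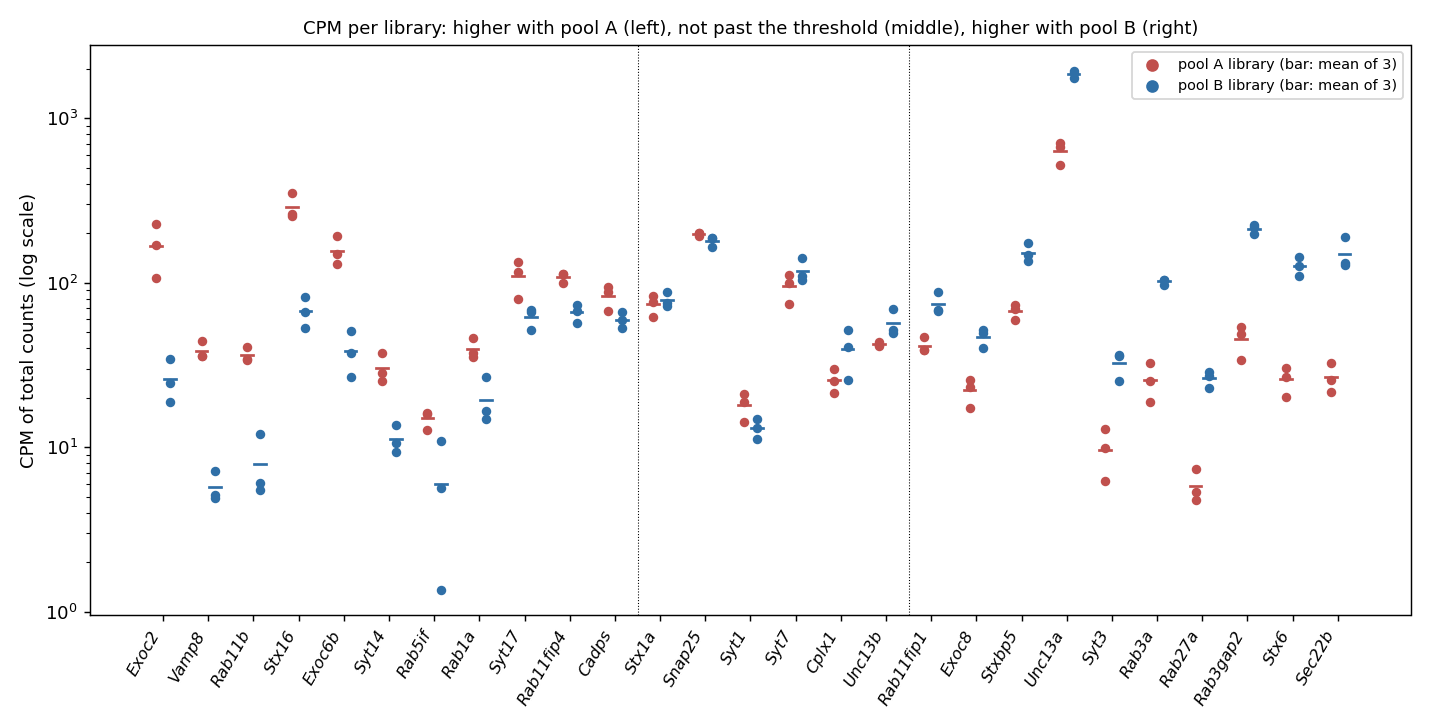
CPM per library (log scale) of secretion genes with large differences in their class and of 6 core genes that did not pass the threshold; points are libraries and bars the mean of 3. Red and blue points are separate for the genes on the left and right, with the smallest gap for Cadps, and lie close together or overlap in the middle.

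The syntaxin-binding proteins had 1 called gene in each direction. Stxbp5, or tomosyn, which binds syntaxin and restrains fusion, had 72.7, 58.9 and 69.0 CPM with pool A and 135.0, 147.3 and 175.2 CPM with pool B. Here the log2 fold change was -1.04 ± 0.16 (SE, edgeR adjusted p 7.95e-06), and its ranges lay apart, with every pool B library above every pool A library. The 4 tested genes of the family that did not pass had log2 fold changes between -0.52 and 0.46.

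Of the 11 tested synaptotagmins, Syt3, Syt5, Syt14 and Syt17 passed the threshold, and Syt1, Syt4 and Syt7 were among the 7 that did not. Syt1, a calcium sensor of fast release, had 18.7, 14.2 and 21.0 CPM with pool A and 11.3, 13.1 and 14.8 CPM with pool B, for a log2 fold change of 0.61 ± 0.35 (SE, edgeR adjusted p 0.172). Syt7, the high-affinity sensor, had 74.1, 99.7 and 112.0 CPM with pool A and 103.6, 141.3 and 110.1 CPM with pool B, with -0.17 ± 0.17 (SE, edgeR adjusted p 0.479). Both overlapped between the pools. Syt4 had 0.55 ± 0.39 (SE, edgeR adjusted p 0.28), and 1.25 with an adjusted p of 0.0217 without pool B replicate 1, within 0.0217 to 0.754 over the alternatives.

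Syt14 (ENSRNOG00000046139), a synaptotagmin that does not bind calcium, had 28.2, 37.6 and 25.1 CPM with pool A and 10.6, 9.31 and 13.6 CPM with pool B. It was higher with pool A by 1.57 ± 0.32 (SE) on the log2 scale (edgeR adjusted p 0.000222). Syt17 had 116.1, 79.5 and 132.7 CPM with pool A and 51.8, 68.4 and 66.2 CPM with pool B, for a log2 fold change of 0.96 ± 0.19 (SE, edgeR adjusted p 0.000123). Syt3 (ENSRNOG00000019318), a high-affinity calcium sensor, was the exception in direction, with 6.24, 9.89 and 12.9 CPM with pool A and 35.8, 36.1 and 25.4 CPM with pool B. Here the log2 fold change was -1.61 ± 0.33 (SE, edgeR adjusted p 0.000248). The ranges of these 3 genes did not overlap. Syt5, a granule synaptotagmin outside the naming rule, was higher with pool A by 0.63 ± 0.22 (SE), a call lost without pool A replicate 1 or 2 or pool B replicate 2 or 3 (edgeR adjusted p 0.0648, 0.0529, 0.0769 and 0.0556, within 0.00998 to 0.448).

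Priming factors were dominated in counts by Unc13a (ENSRNOG00000018452), or Munc13-1, which opens syntaxin for SNARE assembly. It had 666.9, 520.1 and 705.5 CPM with pool A and 1745, 1893 and 1947 CPM with pool B. Every pool B library exceeded every pool A library more than 2-fold. The log2 fold change of -1.42 ± 0.13 (SE), or 2.68-fold, had an edgeR adjusted p of 1.21e-09. Its paralog Unc13b had 42.2 ± 1.0 CPM (SD, n = 3) and 56.7 ± 10.95 CPM (SD, n = 3) with pools A and B, a log2 fold change of -0.29 ± 0.21 (SE, edgeR adjusted p 0.301). Unc13b received 0.0618, 0.0806 and 0.0614 counts per count of Unc13a with pool A and 0.0295, 0.026 and 0.0356 with pool B. Cadps, a priming factor of dense-core granules, was higher with pool A, with 87.9, 67.2 and 94.1 CPM against 52.8, 66.3 and 59.4 CPM. Its ranges were separated only narrowly, and the log2 fold change of 0.63 ± 0.18 (SE) came with adjusted p = 0.00653 in edgeR. Of the complexins, Cplx1 had -0.48 ± 0.27 (SE, edgeR adjusted p 0.164) and Cplx2 0.35 ± 0.30 (SE, edgeR adjusted p 0.373). Cplx1 passed without pool B replicate 3, with -0.71 (edgeR adjusted p 0.0463), within 0.0324 to 0.683, which made 2 genes of the class higher with pool B in place of 1.

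Of 11 tested genes with exocyst symbols, 4 were higher with pool A (36.4%, against 18.6% of all genes), 1 was higher with pool B (9.09%, against 22% of all genes) and 6 did not pass. Exoc2 (ENSRNOG00000060266), which encodes the Sec5 subunit, had 169.3, 226.2 and 107.3 CPM with pool A and 18.8, 34.5 and 24.6 CPM with pool B. Pool A libraries varied by more than 2-fold among themselves, yet all lay above pool B. The log2 fold change of 2.88 ± 0.25 (SE), or 7.38-fold, had an edgeR adjusted p of 2.99e-10 and was the largest of the 110 genes, just above Vamp8 (2.87). With a library left out, Exoc2 ranged from 2.60 to 3.17 and Vamp8 from 2.76 to 3.08, so their order is not settled. Exoc6b (ENSRNOG00000059615), a Sec15 subunit, had 192.1, 129.3 and 148.4 CPM with pool A and 37.2, 50.9 and 26.9 CPM with pool B, with a log2 fold change of 2.20 ± 0.20 (SE, edgeR adjusted p 9.43e-10). Its paralog Exoc6 had 0.12 ± 0.26 (SE, edgeR adjusted p 0.765).

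The other exocyst genes higher with pool A were Exoc3l1 and Exoc3l2, relatives of the Exoc3 subunit that were named after their values were seen. Exoc3l1 had 238.0 ± 34.2 CPM in pool A (SD, n = 3) against 101.8 ± 10.5 CPM in pool B (SD, n = 3), for a log2 fold change of 1.36 ± 0.15 (SE, edgeR adjusted p 1.51e-08). Exoc3l2 had 36.2 ± 8.3 and 10.6 ± 4.2 CPM (SD, n = 3), a log2 fold change of 1.88 ± 0.32 (SE, edgeR adjusted p 2.17e-05). Exoc8, the Exo84 subunit, was higher with pool B, with 25.8, 23.3 and 17.3 CPM in pool A and 40.2, 51.5 and 49.2 CPM in pool B, for a log2 fold change of -0.93 ± 0.25 (SE, edgeR adjusted p 0.00392). The remaining 6 tested exocyst genes, Exoc1, Exoc3, Exoc4, Exoc5, Exoc6 and Exoc7, had log2 fold changes between -0.08 and 1.03 and did not pass.

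**Figure D4:**
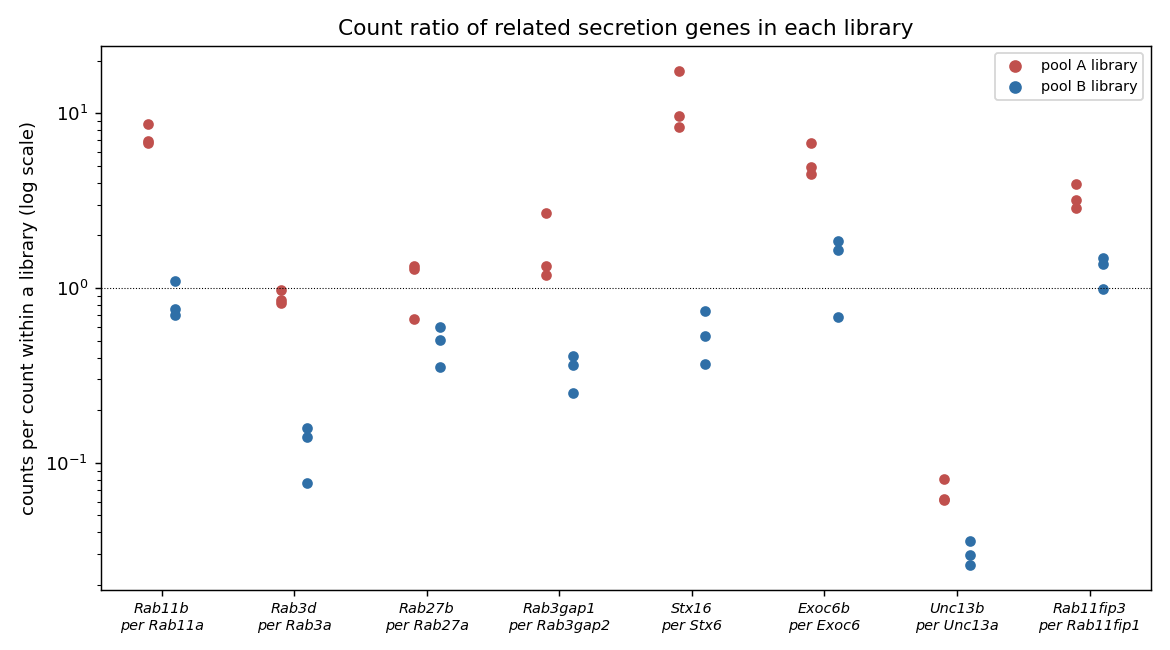
Counts of a gene per count of a related gene within each library (log scale), for 8 pairs of paralogs or partners chosen after their values were seen; points are libraries. The pool A and pool B libraries are separate for each pair, with the widest gap for Stx16 per Stx6 (8.35 to 17.5 with pool A, 0.369 to 0.74 with pool B). The narrowest gap is that of Rab27b per Rab27a (0.667 to 1.33 with pool A, 0.355 to 0.595 with pool B).

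The share of a library's counts held by these genes depended on few of them. All 141 genes together held between 0.516% and 0.577% of the counts with pool A and between 0.646% and 0.673% with pool B. The Unc13 genes, mostly Unc13a, held 0.0577% to 0.0764% with pool A and 0.181% to 0.203% with pool B. The higher total with pool B therefore does not describe the genes as a whole. Priming factors held 0.0688% to 0.0906% with pool A and 0.193% to 0.213% with pool B, and Unc13a had the most counts among them in both pools. The exocyst held 0.0797% to 0.0844% with pool A and 0.0404% to 0.0451% with pool B. For SNAREs the shares overlapped, with 0.0971% to 0.113% and 0.0941% to 0.103%. Rab GTPases held 0.149% to 0.156% with pool A and 0.165% to 0.171% with pool B, a small gap. These shares use total counts without the TMM factors, which were 0.9005 to 1.012 with pool A and 1.038 to 1.064 with pool B. A gap this small depends on that choice of scaling.

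**Figure D5:**
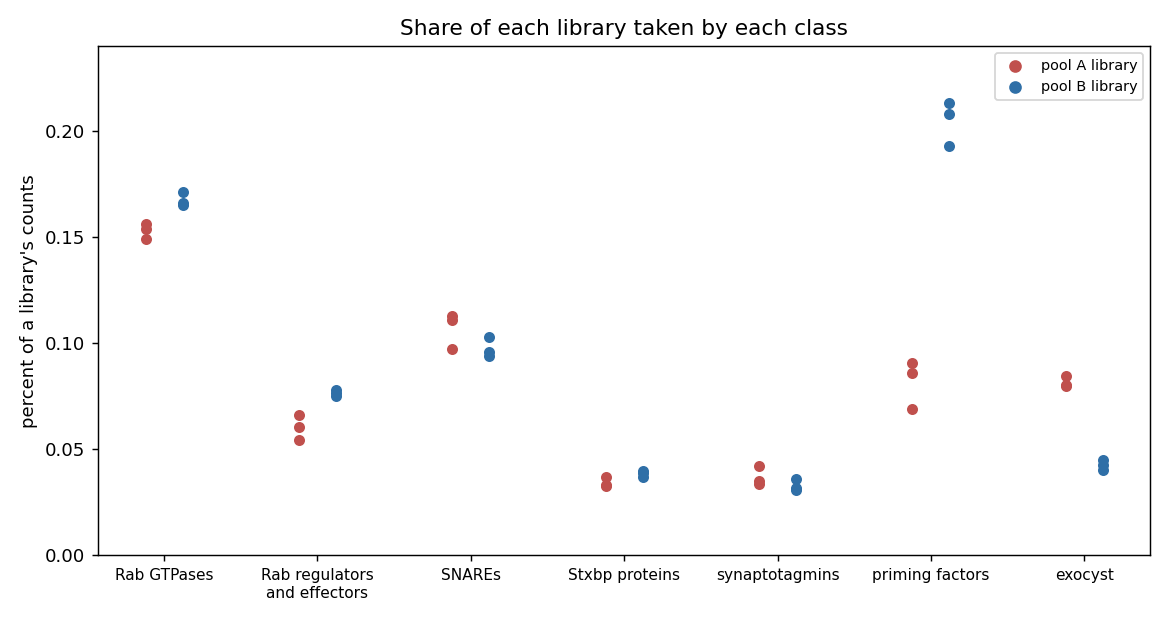
Percent of each library's total counts held by each class of secretion genes; points are libraries. Pool B libraries are higher for the priming factors (0.193% to 0.213%) and pool A libraries for the exocyst (0.0797% to 0.0844%), while SNAREs overlap.

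A list of 70 further genes of the same pathway, which the name rule does not take, was examined beside them. It holds SNARE recycling proteins, further SNAREs and Munc18 relatives, proteins of the Rab cycle, Rab effectors, other calcium-binding C2 domain proteins and vesicle membrane proteins. Of 59 tested, pool A was higher for 6 and pool B for 6, which is 20.3% against 40.6% of all genes, and their median log2 fold change was 0.14. Rph3al, or Noc2, an effector of Rab3 and Rab27 in endocrine granules, had 76.5, 82.3 and 50.2 CPM with pool A and 8.18, 12.1 and 13.6 CPM with pool B. Here the log2 fold change was 2.79 ± 0.28 (SE, edgeR adjusted p 3.63e-09), which is opposite in direction to Rab3a and Rab27a. Syngr2, a vesicle membrane protein, had 11.4, 19.8 and 36.4 CPM with pool A and 58.6, 64.6 and 93.5 CPM with pool B, for a log2 fold change of -1.56 ± 0.28 (SE, edgeR adjusted p 6.05e-05). None of the 4 genes for NSF and its SNAP adaptors, which take spent SNARE complexes apart, passed edgeR's threshold, and 1 of them had an unadjusted p under 0.05.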

How the data were processed

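The authors deposited raw counts per gene, with Ensembl rat identifiers. STAR and featureCounts are named in the submitters' processing notes; versions, genome build, annotation and the strand setting of the counting are not given in the sources used here, and the libraries were strand-specific per the labels' protocols. The table's mean per pool (another deposited column) was not used. Members and gene lists were chosen with earlier results of these data known.

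Pools were compared with edgeR 4.0.16 (R 4.3.3): TMM factors, expression filter by group, quasi-likelihood test on 6 libraries, Benjamini-Hochberg adjustment over all 11582 tested genes, threshold 0.05. Standard errors come from the fold change and its F statistic; CPM uses total counts. In simulated counts, 189 of the 11254 genes tested were changed. Of these, 93.5% of genes changed 4-fold and 47.4% of those changed 2-fold were recovered. Unchanged genes made up 5.04% of calls. In the data 40.6% of tested genes were called, a far larger share than was changed in the simulation. The simulated rates therefore need not hold for this comparison.

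Named genes are a core list of regulated secretion and, per class, up to 2 largest differences in each direction with separate CPM ranges and a mean of at least 10 counts. Results for some genes that meet this rule are not reported here. Same-numbered libraries did not deviate together (r of 0.0409, -0.0195 and 0.02), so numbers were not taken as pairs. Library pairs within a pool differed beyond counting noise (chi-square per degree of freedom 5.86 to 20.7). Alternatives used DESeq2 1.42.0, limma 3.58.1, other scalings, filters, thinned counts, a replicate block and leaving out libraries.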

Additional observations from a re-analysis of the deposited data

How the results depend on the processing

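No called gene of the 39 changed sign under any alternative in which it was tested. Tested against 1.5-fold, which is stricter by construction, pool A was higher for 12 secretion genes and pool B for 8. Partner genes higher with pool A were then 3, Rab GTPases 2 and 2, Rab regulators and effectors 0 and 1, and the counts higher with pool A of Stxbp proteins and priming factors, and higher with pool B of the exocyst, were 0. Rab GTPases higher with pool A numbered 3 with total counts alone and with an adjusted p under 0.01, and priming factors higher with pool B numbered 2 in thinned counts.

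Leaving out a library gave 18 to 23 and 13 to 18 secretion genes higher with pool A and pool B, 5 to 7 and 5 to 6 partner genes, 3 to 6 and 5 to 7 Rab GTPases, 2 to 3 and 2 to 5 Rab regulators and effectors, 4 to 6 and 2 SNAREs, 2 to 4 and 1 synaptotagmins, 1 and 1 to 2 priming factors, 4 and 1 exocyst genes, and 1 and 1 Stxbp proteins. Class medians on the log2 scale then ranged from -0.32 to 0.03 (Rab GTPases), -0.25 to 0.18 (Rab regulators), 0.03 to 0.14 (SNAREs), -0.12 to 0.49 (Stxbp), 0.25 to 0.65 (synaptotagmins), -0.39 to 0.10 (priming factors) and 0.39 to 0.64 (exocyst). Medians of few genes also moved elsewhere: with total counts to -0.15 (SNAREs) and -0.10 (priming factors); with upper-quartile factors to 0.14 (priming factors); without a filter to 0.18 (Stxbp), -0.24 (priming factors) and 0.84 (exocyst); where every library had to hold 10 counts, to 0.57 (synaptotagmins) and 0.14 (exocyst); and in thinned counts to -0.02 (Rab GTPases) and 0.23 (Rab regulators). The cause of these moves was not tested.

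With the replicate number as a block, 23 and 16 secretion genes were called, the same genes as without it, and the synaptotagmin and exocyst medians were 0.61 and 0.85; Bet1 alone among the named genes lost its call (adjusted p 0.0825). The labels do not say whether the numbers pair libraries, and same-numbered libraries did not deviate together, so this fit stands only as a check. Of 619 refits of 39 named genes, 586 kept direction and side of the threshold, 26 lost the call, 6 gained it and 1 changed sign (Stx1a, -0.07 with total counts). Without a filter the 24 genes with too few counts were tested too, 134 in all, and again 23 and 16 were called.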
